A study of Mus musculus with 6 samples.

Results

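The genes described here are 34 mouse genes of protein folding and quality control in the endoplasmic reticulum (ER): chaperones and their cochaperones, enzymes of the calnexin cycle, disulfide isomerases, the stress sensors Ern1 and Atf6 with the transcription factor Xbp1, and genes of ER-associated degradation (ERAD). They were chosen by name for their function, with earlier results of these data known. Each was found by gene symbol among the 55335 genes of the count table. The study asked which transcripts differ between fibroblasts that have squeezed through narrow pores and fibroblasts that have not. All samples were wild-type mouse embryonic fibroblasts (MEFs), and polyadenylated RNA was sequenced. In the Confine group, cells were seeded on a transwell membrane with 3 μm pores, and those on the far side after 15 h were collected. The Ctrl group was the parental MEFs, with no allele or agent that sets it apart from Confine. Time on a membrane, selection of the cells that crossed and passage through the pores cannot be told apart in this design. The study's migration assay, described for wider pores, had serum-free medium above the membrane and medium with serum below. Whether this also held for the 3 μm membrane is not stated, and an effect of serum could not be told apart either. The age and strain of the embryos are not given in the sources used here.

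Proteins bound for secretion or for membranes fold in the ER, where BiP (Hspa5) and other chaperones hold unfolded chains, the calnexin cycle reads their sugar trees, and disulfide isomerases join their cysteines. Chains that fail to fold are moved back to the cytosol and destroyed, which is ERAD. When unfolded chains build up, 3 sensors in the ER membrane, IRE1 (Ern1), ATF6 and PERK (Eif2ak3), start the unfolded protein response: IRE1 splices the Xbp1 transcript into the form that codes for an active transcription factor, ATF6 is cut to release another, and PERK lowers translation and raises ATF4. Fibroblasts secrete much collagen, whose chains carry disulfide bonds and hydroxylated prolines formed in the ER.

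The Ctrl group had 3 libraries with 22287210 to 27853805 counts. Confine was deposited as 3 replicates, but replicates 1 and 2 held the same value for each of the 55335 genes, so they count once here, under the name Confine replicate 2. Confine therefore had 2 libraries, with 32537550 counts in replicate 2 and 27290138 in replicate 3. The labels do not say that the replicates were separate cultures, so p-values measure the spread between these samples, which may be technical. Of 11 fibroblast markers, 8 passed the filter on low counts and 5 of them were higher in Confine (Col3a1, Vim, Fbn1, Pdgfra and Col1a1). This was 62.5%, where 12.8% of all genes were higher by the edgeR test described below. The log2 fold changes of those that did not pass were 0.24 for Col1a2, -0.28 for S100a4 and -0.36 for Pdgfrb. Dcn was not tested, with 2, 0 and 0 counts in Ctrl and 27 and 3 in Confine. Levels are given as CPM, the count of a gene relative to the TMM-normalized total of its library. The summed level of the 11 markers was 8153 to 8928 CPM in Ctrl and 14368 to 15040 CPM in Confine, and Thy1 and Lum were at 2 counts or fewer in every library. Of 15 leukocyte markers, Cd68, Csf1r and Cd14 were higher and Lyz2 was lower in Confine, with a summed level of 15.8 to 18.4 CPM in Ctrl and 36.3 to 42.0 CPM in Confine. In each library 9 to 11 of the 15 leukocyte markers were at 3 counts or fewer, Ptprc and Adgre1 among them. Of 8 endothelial markers, Vwf alone passed the filter and was higher in Confine. The summed level of the 8 was at most 1.36 CPM in Ctrl and 2.70 CPM in Confine. Of 8 epithelial markers none passed the filter, with a summed level of at most 0.675 CPM. The part of other cells in the results below was not tested, and in bulk RNA fewer cells of a type and less RNA per cell cannot be told apart.

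Many genes of this group are known to carry the ER stress element (ERSE) near their start, a sequence read by ATF6 and XBP1 together with the factor NF-Y. Its letters are CCAAT and CCACG with any 9 bases between them, and it was searched on both strands from 250 bases before to 50 bases after each start that RefSeq annotates in GRCm38.p6. This window was given for 29 of the 34 genes, all but Manf, Hyou1, Atf6, Derl1 and Hspa13. The element was in the window of 9 of these 29 genes and of 0.137% of all 27025 genes with a window. The sites are shown because the changes of genes with and without them are set side by side below. Each site is printed 5′ to 3′ on the strand of its gene, with the fixed letters of the element in capitals. In all sites shown here and below, the print and the coordinates include 5 bases on either side of the element. Distances to the RefSeq start are counted from the first base of the element, without these 5 bases. Sites in which the element runs backwards begin with CGTGG. GENCODE places the Hspa5 site in an exon of Hspa5, and the other 9 sites lie outside any annotated gene.
Hspa5, chr2:34772020-34772048, plus strand, starting 65 bases before the RefSeq start: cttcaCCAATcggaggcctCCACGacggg
Hsp90b1, chr10:86705528-86705556, minus strand, 107 bases before: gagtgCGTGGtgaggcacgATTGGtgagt
Hsp90b1, second site, chr10:86705633-86705661, minus strand, 212 bases before: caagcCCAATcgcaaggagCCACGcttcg
Calr, chr8:84847070-84847098, minus strand, 162 bases before: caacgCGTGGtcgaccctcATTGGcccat
Canx, chr11:50325795-50325823, minus strand, 145 bases before: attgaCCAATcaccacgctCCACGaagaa
Pdia6, chr12:17266486-17266514, plus strand, 98 bases before: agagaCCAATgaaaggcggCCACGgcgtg
Dnajc3, chr14:118937822-118937850, plus strand, 105 bases before: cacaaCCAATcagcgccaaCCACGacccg
Creld2, chr15:88819515-88819543, plus strand, 126 bases before: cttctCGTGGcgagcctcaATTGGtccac
Syvn1, chr19:6046527-6046555, plus strand, 44 bases before: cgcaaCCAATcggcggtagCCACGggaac
Derl3, chr10:75893237-75893265, plus strand, 156 bases before: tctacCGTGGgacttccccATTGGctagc

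A related element, ERSE-II (ATTGG and CCACG with any 1 base between them), was in the window of Herpud1, chr8:94386372-94386392 on the plus strand, starting 52 bases before its RefSeq start and inside the annotated gene Gm15890: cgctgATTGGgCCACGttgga. Dnajb11 held the other copy among the 34 genes, after its start and in its own exon, and 0.0444% of all genes with a window had one. The core TGACGTGG of the XBP1 element was in none of the 29 windows and in 0.714% of all genes with a window. The shorter parts CCAAT and CCACG, which every ERSE contains, were in 22 and 25 of the 29 windows, against 41.1% and 35.5% of all genes with a window. A match is a description of these letters only, and says nothing of whether a factor binds there.

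Confine cells had more transcript of a few genes of ER folding, led by the disulfide isomerase P4hb at 2.24 times its Ctrl mean and by Xbp1 at 1.96 times. Of the 34 genes, 33 passed the filter on low counts and 7 passed the test, all of them higher in Confine: P4hb, Xbp1, Manf, Edem2, Dnajb9, Hsp90b1 and Hspa5. The test was edgeR's quasi-likelihood test fitted on all 15881 genes kept, with passing set at a Benjamini-Hochberg adjusted p under 0.05. By the same test 23.0% of all genes passed, 12.8% higher and 10.2% lower in Confine. The 7 of 33, or 21.2%, is near the share of all genes that passed in either direction and above the share that passed higher. Of the 9343 genes at or above the average level of Dnajb9, the lowest passing member, 26.7% passed and 14.5% passed higher. Among the 33, Ern1 lies below that level. None of the 33 genes passed lower in Confine, and none did at an unadjusted p under 0.05 by edgeR, DESeq2 or limma-voom. No member passed the test together with the study's cutoff of an absolute log2 fold change above 1.5, by edgeR, DESeq2 or limma-voom, where by edgeR 4.89% of all genes did so higher and 3.11% lower in Confine. At an unadjusted p under 0.05, 8 members were higher in Confine by each of the 3 tools. The share of all genes at an unadjusted p under 0.05 was not computed. Unadjusted counts here and below therefore have no background beside them, and the adjusted shares are not one.

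The median log2 fold change of the 33 genes was 0.21, beside -0.0021 over all genes, and 25 of the 33 had a value above 0, or 75.8%, beside 49.8% of all genes. Both Confine libraries lay above all 3 Ctrl libraries in 12 of the 33 genes, where 25.9% of all genes did, and below them in Hspa13 alone, where 23.6% did. These directions rest on the scaling between libraries. When libraries were scaled by their size only, without TMM factors, the median of all genes moved to -0.21, and of the 33 genes P4hb, Xbp1 and Hsp90b1 passed higher and Hspa13 passed lower. By that scaling, passing genes of the whole table split into 1444 higher and 2805 lower, against 2035 higher and 1619 lower with TMM.

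**Figure D1:**
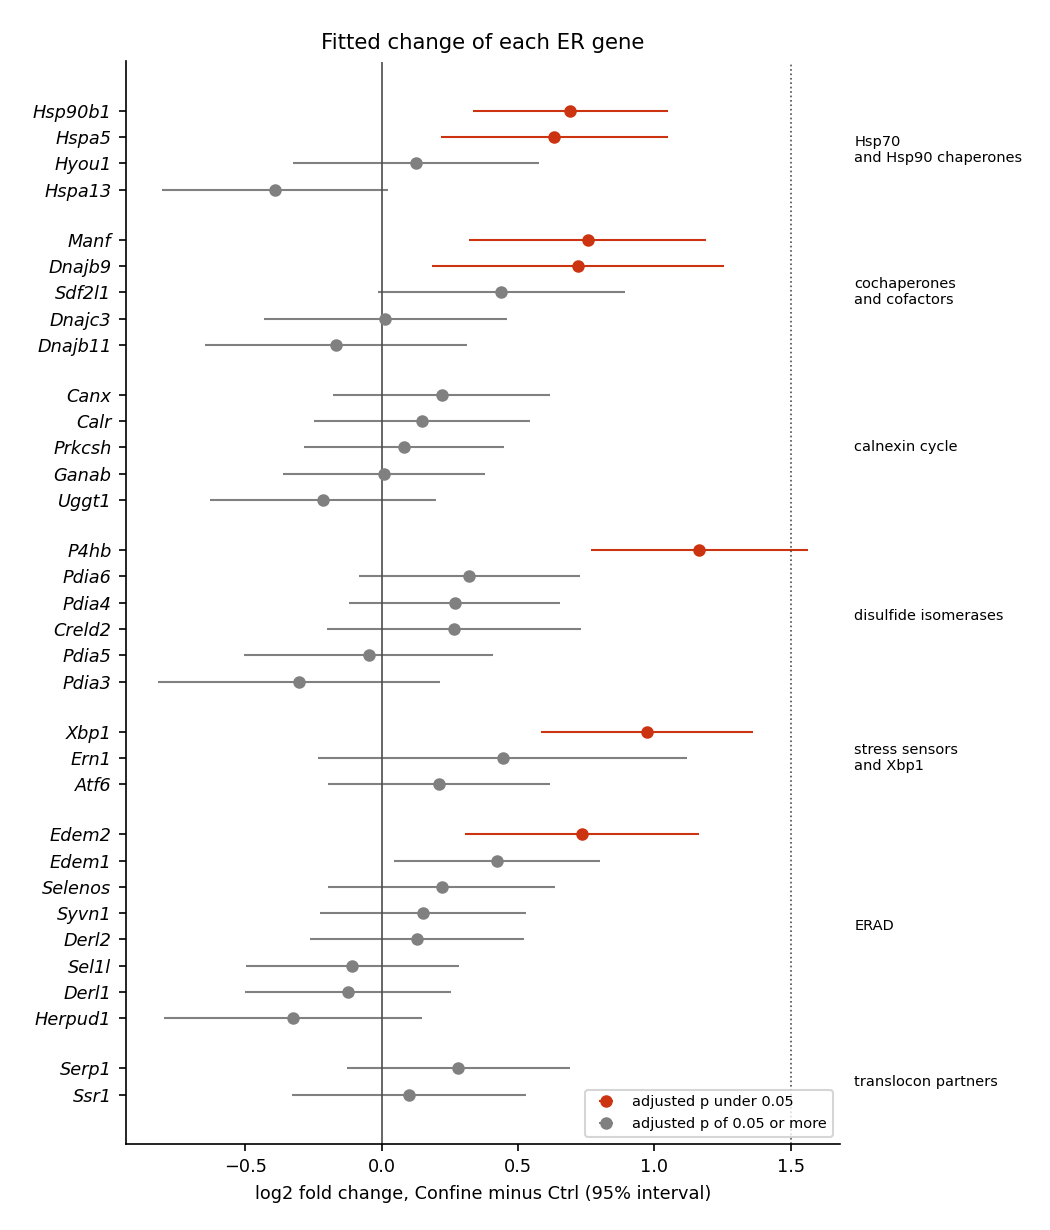
The log2 fold change, Confine over Ctrl, of the 33 genes tested, with 95% intervals from edgeR as bars, grouped by role, in red where the adjusted p was under 0.05. The dotted line is the cutoff of 1.5. The 7 genes that passed the test lie between 0.63 and 1.17, and the other 26 between -0.39 and 0.44.

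Among the Hsp70 and Hsp90 chaperones, the transcripts of BiP (Hspa5) and GRP94 (Hsp90b1) passed as higher, while Hyou1 and Hspa13 did not pass. BiP is the main Hsp70 chaperone of the ER and GRP94 is its Hsp90. The level of Hspa5 (chr2:34771970-34777547, GRCm38, plus strand) was 1264, 880.4 and 1157 CPM in Ctrl and 1962 and 1452 CPM in Confine. Both Confine values lay above every Ctrl value, with Confine replicate 2 well above replicate 3. The means were 1101 ± 198 CPM (SD, n = 3) and 1707 ± 361 CPM (SD, n = 2), a log2 fold change of 0.63 (SE 0.199, edgeR adjusted p = 0.0271). The call was lost without Confine replicate 2 (0.40, edgeR adjusted p = 0.274), without Ctrl replicate 2 (0.49, edgeR adjusted p = 0.0706) and without Ctrl replicate 3 (0.65, edgeR adjusted p = 0.0545).

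Hsp90b1 (chr10:86690209-86705509, minus strand), which codes for GRP94, was at 704.1, 723.6 and 669.3 CPM in Ctrl and at 1136 and 1122 CPM in Confine. The libraries of each group lay close together and the groups were far apart. The means were 699 ± 27.5 CPM (SD, n = 3) and 1129 ± 9.55 CPM (SD, n = 2), and the log2 fold change was 0.69 (SE 0.170, edgeR adjusted p = 0.00578). Its exons share 415 bases with 1810014B01Rik on the opposite strand, which had 43 to 79 counts in any library. Hyou1, a large relative of Hsp70 that exchanges nucleotide on BiP, had a log2 fold change of 0.13 with a 95% interval of -0.33 to 0.58, and it was -0.086 with library size alone. Hspa13, a small microsomal Hsp70, was at 25.6, 31.1 and 22.7 CPM in Ctrl and at 19.6 and 20.8 CPM in Confine. Both Confine libraries lay below every Ctrl library, but the log2 fold change of -0.39 did not pass the test (edgeR adjusted p = 0.172, 95% interval -0.81 to 0.024). It passed as lower with library size alone (-0.60, edgeR adjusted p = 0.0348).

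Of the 5 cochaperones and cofactors, Manf and Dnajb9 passed the test, both higher (40.0%, beside 12.8% of all genes). Manf (chr9:106838312-106891979, minus strand) codes for a small secreted protein that holds BiP in its substrate-bound state. Its level was 157.5, 137.8 and 143.5 CPM in Ctrl and 310.0 and 183.5 CPM in Confine. Both Confine values exceeded every Ctrl value, and the gap between them was wider than the whole Ctrl range. The log2 fold change was 0.75 (SE 0.206, edgeR adjusted p = 0.0120), and without Confine replicate 2 it was 0.33 (edgeR adjusted p = 0.40). Exons of Manf overlap Dcaf1 on the opposite strand over 146 bases, and Dcaf1 had 391 to 574 counts.

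Dnajb9 (chr12:44205559-44210326, minus strand), or ERdj4, is a J protein that directs BiP to IRE1 and to ERAD substrates. It was among the lowest of the passing genes, at 6.74, 4.88 and 4.64 CPM in Ctrl and 10.4 and 7.46 CPM in Confine, so the groups did not overlap. Its log2 fold change of 0.72 (SE 0.255, edgeR adjusted p = 0.0490) was at the edge of the threshold. It missed the threshold without Ctrl replicate 2 (0.64, edgeR adjusted p = 0.0807), Ctrl replicate 3 (0.60, edgeR adjusted p = 0.132), Confine replicate 2 (0.46, edgeR adjusted p = 0.406) or Confine replicate 3 (0.94, edgeR adjusted p = 0.0613). It also missed it by DESeq2 (DESeq2 adjusted p = 0.0579) and limma-voom (limma adjusted p = 0.0519). The other cofactors did not pass. Sdf2l1, which works with the J protein Dnajb11, had a log2 fold change of 0.44 (95% interval -0.014 to 0.89). The values were 0.013 for the J protein Dnajc3 and -0.17 for Dnajb11, and both signs turned when 1 library was left out (Confine replicate 2, -0.098 for Dnajc3; Confine replicate 3, 0.074 for Dnajb11).

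None of the 5 genes of the calnexin cycle passed the test in either direction, where 23.0% of all genes did. A list of 5 is too short to be set apart from that share. None was at an unadjusted p under 0.05 by edgeR, DESeq2 or limma-voom either. This cycle holds glycoproteins that still carry a terminal glucose: glucosidase II (Ganab and Prkcsh) trims the glucose, Uggt1 puts it back on unfolded chains, and the lectins calnexin (Canx) and calreticulin (Calr) bind it. Canx, the most abundant of the 34 transcripts by CPM, was at 2983, 2386 and 2934 CPM in Ctrl and at 3683 and 2761 CPM in Confine. Its groups overlapped, with Confine replicate 3 among the Ctrl values. Its log2 fold change was 0.22 with a 95% interval of -0.18 to 0.62, and that of Calr was 0.15 with an interval of -0.25 to 0.54. Values for Prkcsh, Ganab and Uggt1 were 0.083, 0.0082 and -0.22. With library size alone Calr, Prkcsh and Ganab were below 0.

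The 6 disulfide isomerases differed most among themselves, with P4hb far above its Ctrl level and Pdia3 with a value below 0. P4hb (chr11:120560298-120573253, minus strand) codes for protein disulfide isomerase itself, which is also the β subunit of collagen prolyl 4-hydroxylase. Its level was 1154, 794.5 and 1026 CPM in Ctrl and 2317 and 2129 CPM in Confine. The lower Confine value was well above the highest Ctrl value. The means were 991 ± 182 CPM (SD, n = 3) and 2223 ± 133 CPM (SD, n = 2), with a log2 fold change of 1.17 (SE 0.188, edgeR adjusted p = 1.54e-04). This was the highest fold change of the 33 genes tested, and it passed in all 14 alternative fits, between 0.96 and 1.30.

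Pdia3, the isomerase that works with calnexin and calreticulin, was at 327.6, 160.2 and 181.9 CPM in Ctrl and at 174.1 and 188.2 CPM in Confine. Ctrl replicate 1 stood apart from the 4 other libraries, which lay close together. The log2 fold change was -0.30 (95% interval -0.82 to 0.21, edgeR adjusted p = 0.422), and without Ctrl replicate 1 it was 0.077. The log2 fold changes were 0.32 for Pdia6, 0.27 for Pdia4, 0.27 for Creld2, which is induced with the isomerases under ER stress, and -0.048 for Pdia5, and none passed. Both Confine libraries of Pdia6 and Pdia4 lay above all Ctrl libraries.

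A ratio of counts of a pair of genes within a library does not depend on the scaling between libraries. The ratio of P4hb to Pdia3 counts was 3.52, 4.96 and 5.64 in Ctrl and 13.3 and 11.3 in Confine, and that of P4hb to Pdia6 was 1.82, 1.72 and 1.58 in Ctrl and 2.93 and 3.21 in Confine. In both ratios the groups did not overlap, with Confine higher. The pairs were chosen after the values were seen, with P4hb the highest of the isomerases in fold change and Pdia3 the lowest. A separation was therefore likely from the choice alone. The share of other gene pairs that separate was not computed. The ratio of Hspa5 to Calr overlapped between the groups, at 1.69, 0.927 and 1.73 in Ctrl and 2.27 and 1.65 in Confine. With 3 libraries against 2, an exact permutation test of such a ratio cannot give a p under 0.1, so none was run.

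**Figure D2:**
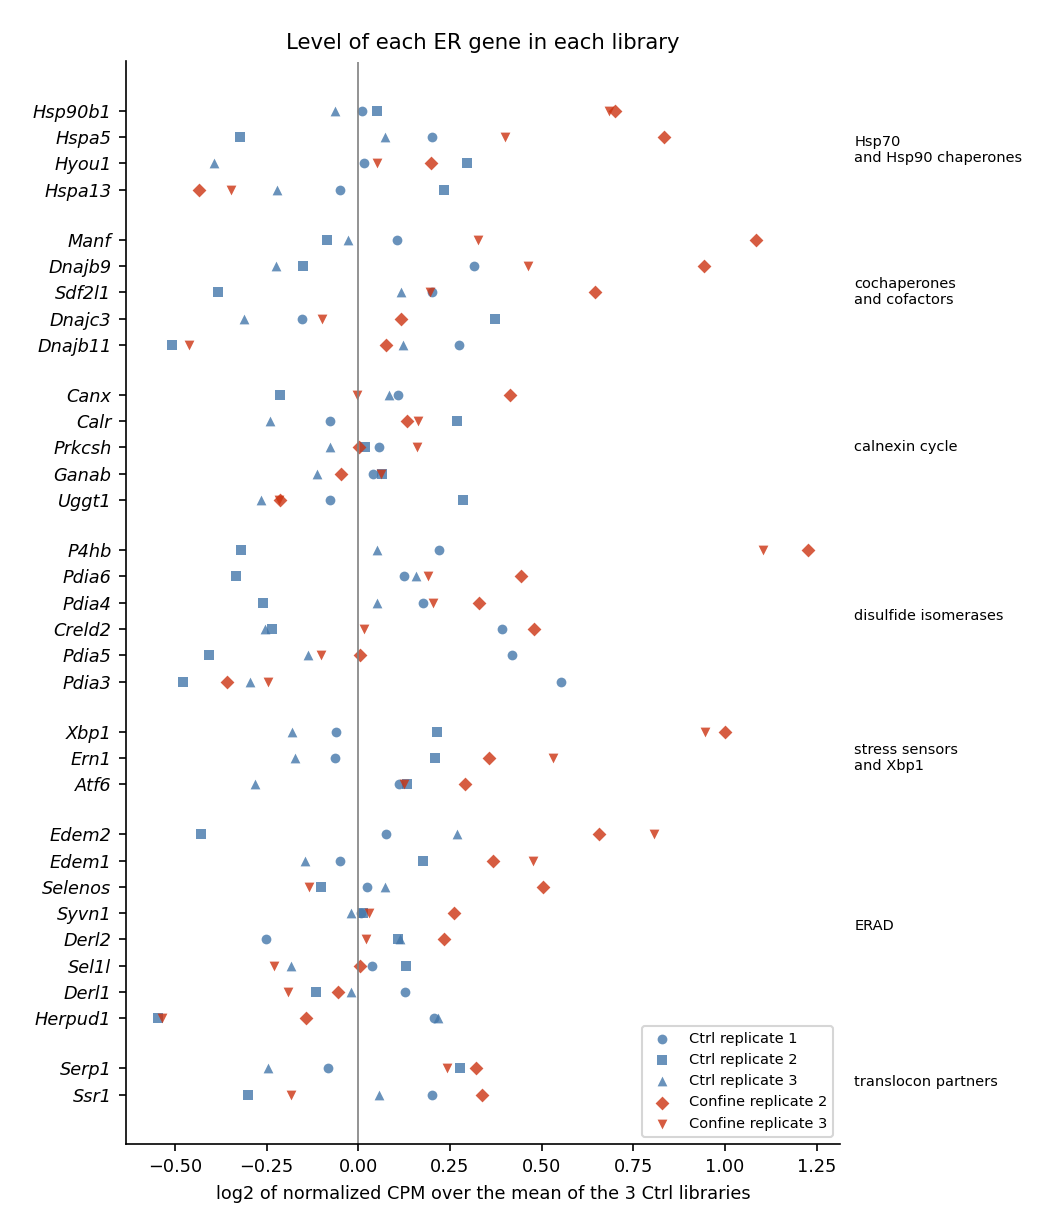
The level of each of the 33 genes tested in the 3 Ctrl (blue) and 2 Confine (red) libraries, as log2 of its CPM over the mean CPM of the Ctrl libraries, grouped by role, with 1 point per library. P4hb, Xbp1 and Hsp90b1 have both Confine points close together and above all Ctrl points, while the Confine points of Manf (310.0 and 183.5 CPM) lie far apart.

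Xbp1 rose and the sensors Ern1 and Atf6 did not pass the test. Xbp1 (chr11:5520659-5525893, plus strand) was at 27.6, 33.4 and 25.4 CPM in Ctrl and at 57.6 and 55.4 CPM in Confine. The Confine libraries lay close together, both above every Ctrl library. The means were 28.8 ± 4.14 CPM (SD, n = 3) and 56.5 ± 1.54 CPM (SD, n = 2), with a log2 fold change of 0.97 (SE 0.184, edgeR adjusted p = 6.91e-04). Counts per gene do not separate the spliced transcript from the unspliced one, so the share spliced by IRE1 was not analysed here. The ratio of Xbp1 to Hspa5 counts overlapped between the groups, at 0.0218, 0.0379 and 0.0219 in Ctrl and 0.0293 and 0.0381 in Confine.

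Ern1 (chr11:106394650-106487852, minus strand) was at 1.97, 2.38 and 1.83 CPM in Ctrl and at 2.64 and 2.98 CPM in Confine. The groups did not overlap, yet the log2 fold change of 0.44 (95% interval -0.23 to 1.12, edgeR adjusted p = 0.359) did not pass at this depth. Atf6 (chr1:170704674-170867771, minus strand) was at 25.7, 26.1 and 19.6 CPM in Ctrl and at 29.1 and 25.9 CPM in Confine, so the groups overlapped. Its log2 fold change was 0.21 (95% interval -0.20 to 0.62, edgeR adjusted p = 0.489), and -0.0004 with library size alone.

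Of the 9 ERAD genes, 8 were tested and Edem2 alone passed (12.5%, near the 12.8% of all genes that passed higher). Edem2 (chr2:155701677-155729475, minus strand) takes part in the first mannose trimming that marks a glycoprotein for degradation. It was at 53.2, 37.5 and 60.9 CPM in Ctrl and at 79.6 and 88.4 CPM in Confine. The groups did not overlap, although the Ctrl libraries were widely spread. The log2 fold change was 0.73 (SE 0.204, edgeR adjusted p = 0.0135), and it missed the threshold without Confine replicate 2 (0.81, edgeR adjusted p = 0.0643) or Confine replicate 3 (0.65, edgeR adjusted p = 0.154). Its relative Edem1 was at 67.6, 79.0 and 63.3 CPM in Ctrl and at 90.3 and 97.3 CPM in Confine, with no overlap. Its log2 fold change of 0.42 (SE 0.180) missed the threshold (edgeR adjusted p = 0.103), and passed without Ctrl replicate 2 (0.51, edgeR adjusted p = 0.0216).

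No gene of the retrotranslocation complex passed the test, where 23.0% of all genes did. These genes are too few to be set apart from that share. The ubiquitin ligase Syvn1 (HRD1) had a log2 fold change of 0.15 and its partner Sel1l one of -0.11, and the channel proteins Derl1 and Derl2 had -0.12 and 0.13. Selenos, which links Derlin proteins to the ATPase p97, had 0.22. The ratio of Edem2 to Sel1l counts was 1.01, 0.666 and 1.34 in Ctrl and 1.54 and 2.01 in Confine, without overlap. This pair too was chosen after the values were seen, with Edem2 as the ERAD gene that passed. Herpud1, which organises the ligase complex and is itself short-lived, had a log2 fold change of -0.32 (95% interval -0.80 to 0.15, edgeR adjusted p = 0.334). It passed as lower without Ctrl replicate 2 (-0.54, edgeR adjusted p = 0.0320). Derl3 had 3, 3 and 4 counts in Ctrl and 2 and 5 in Confine, at about the floor of 3 counts (0.101 to 0.128 CPM), and was not tested. The translocon partners Serp1 and Ssr1, the latter a subunit of the TRAP complex, had 0.28 and 0.099, and neither passed.

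Together, the 26 genes tested that did not pass had log2 fold changes of -0.39 to 0.44, 18 above 0 and 8 below. The 95% interval ended below 1 in 25 of the 26, all but Ern1, and the lowest bound of any was -0.82 (Pdia3). Genes that passed were found with and without an ERSE. Of the 8 tested genes with an ERSE shown above, Hspa5 and Hsp90b1 passed and the median log2 fold change was 0.24. Of the 20 tested genes with a window and no ERSE, P4hb, Xbp1, Edem2 and Dnajb9 passed and the median was 0.18. Herpud1 and Dnajb11, which hold ERSE-II, are among these 20. Of all genes, 23.0% passed in either direction and 12.8% passed higher. Both lists are too short to be set apart from these shares or from each other.

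Levels between genes can be compared only per length of transcript. By mean CPM per kilobase of annotated exon, the highest of the 34 genes in Ctrl were Canx (590), P4hb (347), Calr (274), Hspa5 (260) and Hsp90b1 (173), and in Confine P4hb (777), Canx (687), Hspa5 (404), Calr (303) and Hsp90b1 (280). In Ctrl, P4hb was at 278 to 403 CPM per kilobase and Canx at 508 to 636, without overlap. In Confine the ranges of the 2 overlapped, with P4hb at 810 and 744 and Canx at 785 and 588 CPM per kilobase in replicates 2 and 3. Compared within each library, P4hb was below Canx in every Ctrl library and above it in both Confine libraries. Calr and Hspa5 overlapped in Ctrl, at 232 to 330 and 208 to 299, while in Confine Hspa5 was at 464 and 343 and Calr at 300 and 306. The lowest tested gene was Ern1, at 0.252 CPM per kilobase in Ctrl and 0.343 in Confine. Exon length here is that of all annotated exons joined, which makes genes with long minor transcripts appear lower.

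**Figure D3:**
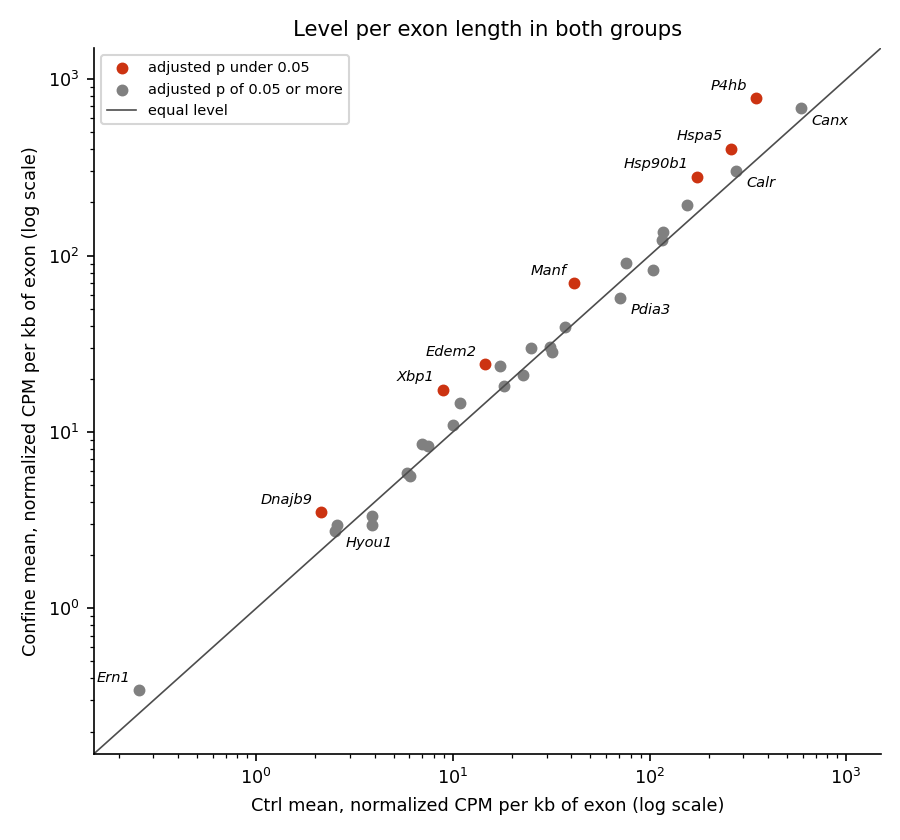
Mean level in CPM per kilobase of annotated exon of the 33 genes tested in Ctrl (x axis) and Confine (y axis), both log scale, with passing genes in red and the diagonal of equal levels drawn. P4hb moves from second in Ctrl (347) to first in Confine (777), past Canx (590 and 687).

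All 34 genes together held 0.976% to 1.16% of all counts in Ctrl and 1.12% and 1.33% in Confine, and these ranges overlapped. On the TMM-normalized scale they did not, with a summed level of 9017 to 11155 CPM in Ctrl and 12118 and 14661 CPM in Confine. The means were 10176 ± 1081 CPM (SD, n = 3) and 13389 ± 1798 CPM (SD, n = 2). The 26 tested genes that did not pass overlapped in summed level, at 6404 to 7788 CPM in Ctrl and 7080 and 8787 CPM in Confine. The 7 that passed were at 2612 to 3367 CPM in Ctrl and 5038 and 5873 CPM in Confine. As the test on these libraries picked the 7, their separation follows from that choice.

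The 2 Confine libraries differed from each other in these genes. Of the 32 genes with at least 100 counts in every library, 25 were higher in Confine replicate 2 than in replicate 3, or 78.1%, beside 52.8% of all 9662 genes with such counts. The excess was above 1.2-fold in 10 of the 32, where 17.1% of all genes were, and an excess of that size in replicate 3 occurred in 0 of the 32, where 16.4% of all genes were. The 10 genes were Manf, Selenos, Dnajb11, Ssr1, Dnajb9, Creld2, Sdf2l1, Hspa5, Canx and Herpud1, with ratios of 1.31 (Herpud1) to 1.69 (Manf). In contrast, the ratio was 1.01 for Hsp90b1, 1.04 for Xbp1, 1.09 for P4hb and 0.90 for Edem2. Among the Ctrl libraries, replicate 1 was more than 1.2-fold above the mean of the other 2 in 11 of the 32 genes, where 14.5% of all genes were, from 1.21 for Pdia4 to 1.56 for Creld2, 1.61 for Pdia5 and 1.91 for Pdia3. Hspa5, Sdf2l1, Herpud1, Ssr1, Dnajb9, Dnajb11 and Creld2 are in both sets. P4hb, with a Ctrl replicate 1 ratio of 1.27, is in the Ctrl set alone. The labels give no batch, so what set these libraries apart was not tested.

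Around the 34 genes, 116 further genes of the ER were listed by function, of which 115 were tested, 16 passed higher (13.9%, beside 12.8% of all genes) and 4 lower (3.48%, beside 10.2% of all genes). The total of 20 was 31 without Ctrl replicate 2, 12 without Ctrl replicate 1, 8 without Confine replicate 2 and 10 without Confine replicate 3. Without Ctrl replicate 1 all 12 were higher, so each of the 4 lower calls was lost. Of the 16 higher calls, Ero1a and Dad1 kept theirs whichever library was left out. Without Confine replicate 2, Sec61b, Sec11a, Stt3b, Magt1, Ero1b, Fkbp11, Txndc11, Sil1 and Selenok missed the threshold, with edgeR adjusted p from 0.0535 (Fkbp11) to 0.285 (Ero1b). Without Confine replicate 3, Sec61g, Tusc3, Ost4, Txndc11, Sil1, Ppp1r15a and Stc2 missed it, with edgeR adjusted p from 0.0506 (Tusc3) to 0.284 (Sil1). With library size alone 11 passed higher and 17 lower. The counts by list below are those of edgeR with TMM.

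Of 18 genes of the translocon and signal peptidase, through which chains enter the ER, 3 were higher (16.7%, near the 12.8% of all genes) and none lower, with a median log2 fold change of 0.29. These were the SEC61 channel subunits Sec61b (0.77) and Sec61g (0.76) and the signal peptidase subunit Sec11a (0.64). Of 11 genes of the oligosaccharyltransferase, which attaches sugar trees to entering chains, 5 were higher (45.5%) and none lower, with a median of 0.48. They were Tusc3 (0.89), Ost4 (0.84), Dad1 (0.83), Stt3b (0.70) and Magt1 (0.68). In neither list was a gene lower at an unadjusted p under 0.05 by edgeR, DESeq2 or limma-voom.

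Of 33 genes of ER redox and folding, 5 were higher (15.2%, near the share of all genes) and 1 lower (3.03%), with a median of 0.13. Ero1a, the oxidase that passes oxidising power to P4hb protein, was at 12.4, 15.0 and 10.5 CPM in Ctrl and at 276 and 448 CPM in Confine. Every Confine library was far above every Ctrl library. Its log2 fold change of 4.84 (SE 0.235, edgeR adjusted p = 7.82e-11) was the only one in the wider list past the cutoff of 1.5. Its paralog Ero1b had 0.80 (edgeR adjusted p = 0.0305). The other genes of the list that rose were the prolyl isomerase Fkbp11 (0.88), Txndc11 (0.63) and Sil1 (0.58), a nucleotide exchange factor of BiP. The collagen chaperone Serpinh1 (HSP47) passed as lower at -1.02 (edgeR adjusted p = 0.0238), although its libraries overlapped, at 1673, 644.9 and 1231 CPM in Ctrl and 401.9 and 763.4 CPM in Confine. This call was lost without Ctrl replicate 1 (-0.69, edgeR adjusted p = 0.0856), without Confine replicate 2 (-0.63, edgeR adjusted p = 0.291) and by DESeq2 (DESeq2 adjusted p = 0.201).

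Of 32 further ERAD genes, 31 were tested, with a median log2 fold change of -0.014. Selenok alone, or 3.23%, passed as higher (0.72, edgeR adjusted p = 0.00708), beside 12.8% of all genes. At an unadjusted p under 0.05, 2 of the 31 were higher and 4 lower by edgeR and DESeq2, and 2 higher and 5 lower by limma-voom. Of 22 genes of stress sensing and output, 2 were higher (9.09%) and 3 lower (13.6%), both near the shares of all genes, with a median of 0.026. Ppp1r15a (GADD34), the phosphatase subunit that restores translation, had 0.85, and Stc2 had 0.80. Atf4, the effector of PERK, was at 590.9, 416.9 and 532.1 CPM in Ctrl and at 373.5 and 324.0 CPM in Confine, without overlap. Its log2 fold change was -0.56 (SE 0.194, edgeR adjusted p = 0.0453), and it missed the threshold without Ctrl replicate 1 (-0.45, edgeR adjusted p = 0.185), Ctrl replicate 3 (-0.55, edgeR adjusted p = 0.0908), Confine replicate 2 (-0.66, edgeR adjusted p = 0.100) or Confine replicate 3 (-0.46, edgeR adjusted p = 0.284). Chac1, a target of ATF4, was also lower (-0.77, edgeR adjusted p = 0.0108), as was the NF-Y subunit Nfyc (-0.91, edgeR adjusted p = 0.0114). Without Ctrl replicate 1 neither passed, with -0.64 for Chac1 (edgeR adjusted p = 0.0580) and -0.64 for Nfyc (edgeR adjusted p = 0.0767). Chac1 was also lost without Confine replicate 2 (-0.76, edgeR adjusted p = 0.109) or Confine replicate 3 (-0.77, edgeR adjusted p = 0.107), and Nfyc without Confine replicate 3 (-0.74, edgeR adjusted p = 0.195). Trib3 had -0.56 (edgeR adjusted p = 0.0662), Ddit3 (CHOP) had 0.34 (edgeR adjusted p = 0.231) and Eif2ak3, the gene of PERK, had 0.40 (edgeR adjusted p = 0.320), and none of the 3 passed.

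**Figure D4:**
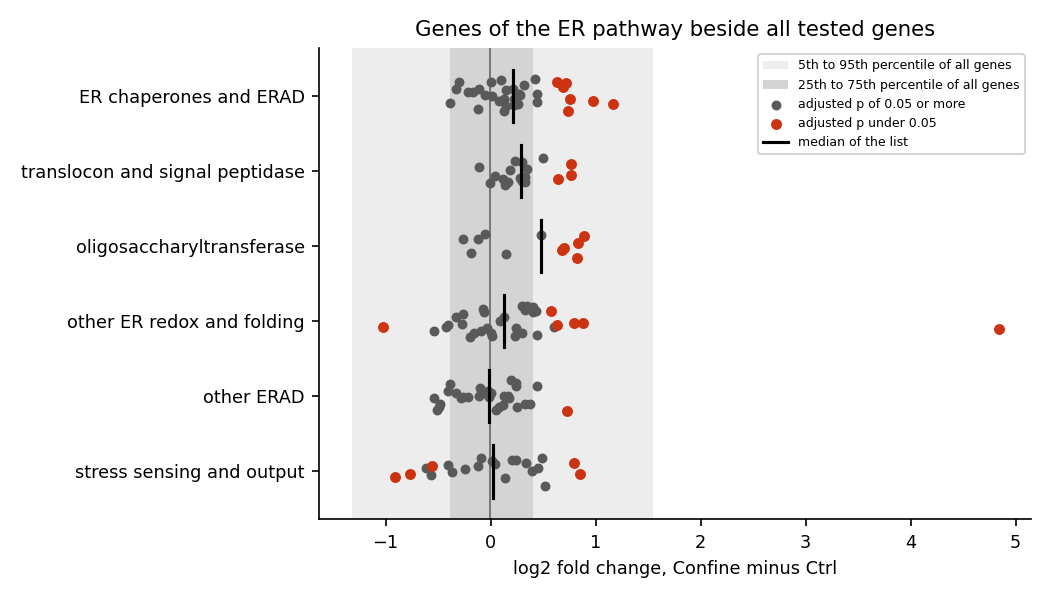
The log2 fold changes (Confine over Ctrl, edgeR) of the genes in the 34-gene group and in the 5 wider ER lists, 1 point per gene, red where the adjusted p was under 0.05, with the median of each list as a bar and the 5th to 95th and 25th to 75th percentiles of all genes as grey bands. The medians run from -0.014 for the further ERAD genes to 0.48 for the oligosaccharyltransferase, and Ero1a stands apart at 4.84.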

How the data were processed

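The authors deposited raw counts per gene, whole numbers with no normalization, from poly(A)-selected libraries made with dUTP. Per the labels and the submitters' processing notes, reads were handled with Trim Galore 0.6.10, HISAT2 2.1.0, SAMtools 1.5 and featureCounts on mm10. The strand setting of the counting is not given in the sources used here. Names and positions came from GENCODE M21 (GRCm38), which 55154 of the 55335 gene IDs matched without version. Genes were kept by filterByExpr, scaled by TMM (factors 1.04, 1.08 and 1.06 in Ctrl, 0.910 and 0.924 in Confine) and tested with edgeR 4.0.16 in R 4.3.3, with 3 residual degrees of freedom. Fold changes carry edgeR's prior count of 0.125. CPM values are counts over the TMM-scaled library size, and intervals use edgeR's moderated spread. The script was tested on simulated counts. DESeq2 1.42.0 and limma 3.58.1 (voom) were alternatives, with other scalings, filters, a replicate block and each library left out. The floor of 3 counts allows for counting error alone, as PCR copies were not told apart. The 34 genes and all lists were chosen with earlier results of these data known. Values in every library were given for members that passed the test and for Hspa5, Hsp90b1, Xbp1, Ern1 and Atf6. Of the wider lists the passing genes with the highest and lowest log2 fold change (3 each per list), Ero1a, Atf4, Ddit3, Eif2ak3, Trib3 and Ppp1r15a were named, and of the marker lists the genes that passed. Library values of Canx, Pdia3, Hspa13, Edem1 and Serpinh1 and the ratios were added after their values were seen.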

Additional observations from a re-analysis of the deposited data

How the results depend on the processing

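P4hb, Xbp1 and Hsp90b1 passed in all 14 alternative fits, Manf in 12, Edem2 in 11, Hspa5 in 10 and Dnajb9 in 5. The count of 7 passing members was 6 by DESeq2, limma-voom, RLE factors and a minimum of 10 counts in every library, 7 without a filter, 9 with the identical columns as 2 samples (8 higher and Hspa13 lower), 4 with library size alone (3 higher and Hspa13 lower) and 0 with the cutoff of 1.5, and it ranged from 3 (without Confine replicate 2) to 7 with 1 library left out. The 7 without Ctrl replicate 2 were 6 higher, 5 of them among the original 7, and Herpud1 lower. A fit that leaves 1 Confine library assumes that it varies like Ctrl.

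Deviations of libraries with the same replicate number correlated at -0.053 over all genes with the repeated column as replicate 2 and at 0.052 as replicate 1, so the numbers were not shown to pair the samples. With a replicate block, 7 members passed (repeated column as replicate 2) or 10 (as replicate 1, 9 higher and Herpud1 lower), 7 (all higher) or 40 (26 higher, 14 lower) of the wider list, where 20 (16 higher, 4 lower) passed without it, and 2528 or 4933 of all genes. The wider count was 36 with the identical columns as 2 samples, 1 with the cutoff of 1.5, and 8 to 31 with 1 library left out. Of all genes, 1271 passed with the cutoff and 2054 to 4426 with 1 library left out, the lowest without Confine replicate 3 (2054) and Confine replicate 2 (2256).

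The signs of 15 members that did not pass turned in some fits. Scaling by library size alone shifts all genes together (median -0.21), so by construction members just above 0 fell below it, with -0.0642 for Calr, -0.2007 for Dnajc3, -0.0862 for Hyou1, -0.0004 for Atf6, -0.0589 for Syvn1, -0.0812 for Derl2, -0.1081 for Ssr1, -0.2004 for Ganab and -0.1251 for Prkcsh. The cause of the other turns was not tested. With the block values were 0.0841 for Pdia3, 0.2229 for Pdia5 and -0.0241 for Dnajc3 (repeated column as replicate 2) and -0.0528 for Ssr1 (as replicate 1). Ganab was at -0.0049 by DESeq2, -0.0048 with RLE factors, -0.0021 without a filter and -0.0219 with the identical columns as 2 samples. With 1 library left out, values ran from -0.0012 to 0.411 for Canx, -0.4968 to 0.0772 for Pdia3, -0.2197 to 0.2126 for Pdia5, -0.4604 to 0.0737 for Dnajb11, -0.1369 to 0.2382 for Dnajc3, -0.0533 to 0.2945 for Hyou1, -0.2284 to 0.0039 for Sel1l, -0.1308 to 0.5018 for Selenos, -0.1824 to 0.3347 for Ssr1, -0.0635 to 0.0635 for Ganab and -0.0007 to 0.1633 for Prkcsh.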
